A study of Saccharomyces cerevisiae with 4 samples.

Results

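The genes described here code for the proteins that carry nutrients across the plasma membrane of budding yeast (Saccharomyces cerevisiae): hexose carriers and the 2 glucose sensors, permeases for amino acids and ammonium, carriers of phosphate, sulfate, metals, nucleobases and other solutes, and the proton pump. They were chosen by name, 54 genes of the 5539 named genes on the array. The study measured RNA recovered with zzMex67, a tagged form of the mRNA export receptor Mex67, against total RNA on 4 two-colour arrays, each spot giving at most 1 ratio. All 4 arrays belonged to 1 group; channel 2 held the precipitate on arrays 1 and 2, channel 1 held it on arrays 3 and 4, and the titles carry a code that is the same for arrays 1 and 3 (A here) and for arrays 2 and 4 (B here). The strain, the medium and the stage of growth, on which the transcription of these genes depends, are not stated in the labels, and a control precipitation without the tag was not analysed here. The labels do not say whether separate cultures were used, so a p-value here reflects how much the arrays differ, which can be technical variation alone.

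Yeast takes up glucose by facilitated diffusion through the HXT family, whose members differ in their affinity for glucose and in the glucose concentration at which they are transcribed. The sensors Snf3 and Rgt2 signal external glucose, which relieves repression of HXT genes by the transcription factor Rgt1. Most other uptake is driven by the proton gradient that the plasma membrane ATPase Pma1 builds, and the permeases concerned are transcribed according to the supply of nitrogen, phosphate or metal. All these transcripts leave the nucleus through the pores, where Mex67 with its partner Mtr2 carries mRNA.

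The deposited values are log10 ratios, given here as log2 after subtracting from each array its median over the features tested. A feature is a named gene, its probes averaged, or a single probe without a gene name, and it was tested where it had a ratio on at least 3 arrays with both channel assignments present. A value of 1 thus means a ratio 2-fold that of the median tested feature on that array. The ratio is likely precipitated over total RNA; the labels do not state its direction, and read the other way every sign below would turn. Arrays 2, 3 and 4 were read as turned the same way because they correlated above 0, also over the transporter genes (r = 0.886 for arrays 2 and 3 over 12 genes, 0.794 for arrays 2 and 4 over 14 genes, 0.973 for arrays 3 and 4 over 11 genes; the genes share arrays and are no replicates). Unturned ratios with a dye effect particular to each spot would also correlate above 0 between arrays of opposite channel assignment, and this was not tested. Array 1 stood apart from the others over all features (r = 0.127, 0.239 and 0.163 with arrays 2, 3 and 4) and held no ratio for any hexose carrier.

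Each of the 54 genes had 2 probes, 108 in all, but most had no ratio. A ratio was listed on at least 1 array for 25 genes, on at least 3 arrays for 12, and on none for 29. Coverage was very uneven between the classes of transporter. Of 15 hexose carriers, 12 had a ratio and 10 (66.7%) were tested, against 8.99% of all named genes and 2 of the 39 other transporter genes (5.13%). In the other classes 1 of 13 amino acid permeases and 1 of 3 nucleobase and nucleoside carriers were tested. The ammonium permeases, proton pumps, phosphate and sulfate carriers and metal uptake genes had ratios on 1 or 2 arrays at most. The glucose sensors, the peptide and allantoate carriers, and the inositol, lactate and potassium carriers had none. Why a spot lacks a ratio is not stated in the labels, so a missing ratio says nothing of the transcript's level.

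**Figure D1:**
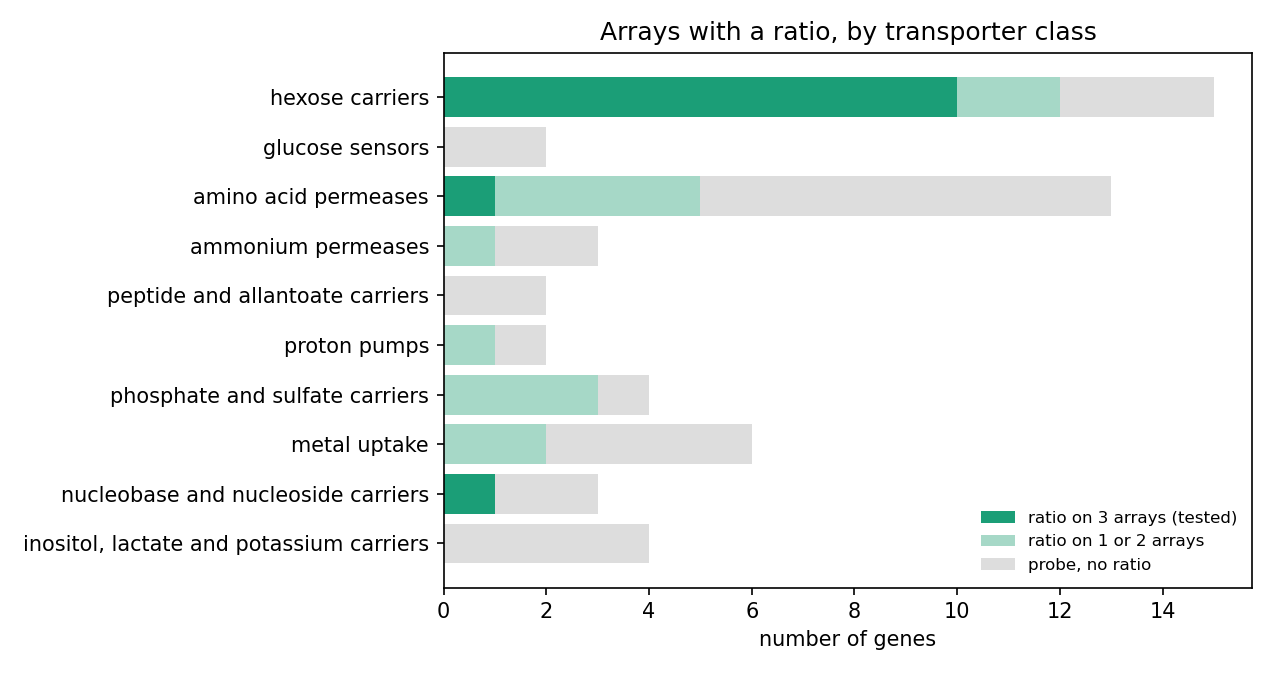
Number of genes in each transporter class (horizontal axis) by the number of arrays with a ratio: 3 arrays (dark), 1 or 2 arrays (light) or none (grey). The 15 hexose carriers hold 10 of the 12 tested genes.

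Transcripts of the hexose carriers lay above the array median as a rule. Of the 10 tested, 7 lay above it (limma, Benjamini-Hochberg adjusted p under 0.05), 0 lay below and 3 did not pass. HXT3 stood highest at 11.3-fold, HXT1, HXT10, HXT5 and HXT7 lay 3.69- to 4.47-fold above the median, HXT12 lay 2.30-fold and HXT4 1.99-fold above it. Over all 596 features tested, 21.3% were called above the median and 24.8% below. The median of the 10 mean log2 ratios was 1.54, against -0.0043 over all features. Of the 10 hexose genes, 9 lay above the array median on all of arrays 2 to 4; HXT9 lay above it on array 2 only. Transcripts of near-identical HXT genes can bind each other's spots, so these genes are not independent of each other.

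HXT3, a low-affinity glucose carrier transcribed when glucose is present, had centred log2 ratios of 3.18, 3.61 and 3.72 on arrays 2, 3 and 4. It was among the highest features on each of these arrays, at the 99.4th, 99.1st and 99.4th percentile of all features with a ratio there. The mean was 3.50 ± 0.29 (SD, n = 3; limma, adjusted p = 0.00311), place 3 among the 596 tested. HXT1, the low-affinity carrier of cells in abundant glucose, had 2.16, 2.24 and 2.08. The arrays agreed closely on HXT1, with a mean of 2.16 ± 0.08 (SD, n = 3; limma, adjusted p = 0.00395), and its SD was the smallest of the 10 hexose genes. The ratio of HXT3 exceeded that of HXT1 on each array, by 1.34 ± 0.31 log2 on average (SD, n = 3).

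The high-affinity carriers HXT6 and HXT7 are a tandem pair of nearly identical genes, adjacent in the reference gene order and separated from HXT3 by 1 annotated gene. HXT7 had centred log2 ratios of 1.62, 2.04 and 2.00 on arrays 2 to 4, with a mean of 1.89 ± 0.23 (SD, n = 3; limma, adjusted p = 0.00540). HXT6 had 0.50, 1.48 and 0.75, with a mean of 0.91 ± 0.51 (SD, n = 3), and did not pass (limma, adjusted p = 0.0586). All 3 arrays placed HXT7 higher. The difference was 1.11, 0.55 and 1.25 log2 on arrays 2, 3 and 4, with a mean of 0.97 ± 0.37 (SD, n = 3), beyond its spread. How much signal the near-identical copies shared was not tested. Centred within blocks of consecutive probe numbers, as described below, the difference was 1.64 ± 0.32 (SD, n = 3).

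HXT4, a carrier transcribed at low glucose, had 1.43, 0.62 and 0.92 on arrays 2, 3 and 4, a mean of 0.99 ± 0.41 (SD, n = 3; limma, adjusted p = 0.0384). HXT5, whose transcript is known from slow-growing and stationary cells, had 1.63, 2.32 and 1.97, a mean of 1.97 ± 0.35 (SD, n = 3; limma, adjusted p = 0.00540). HXT1 and HXT5 are neighbours in the reference gene order, and HXT4 is 1 annotated gene away from HXT1. HXT4 lay below HXT1 on each array, by 1.17 ± 0.45 log2 (SD, n = 3), so HXT4 and HXT1 had unlike ratios. HXT1 and HXT5 lay closer together, with means of 2.16 and 1.97. Centred within blocks, as described below, HXT1 and HXT5 had 2.46 and 0.64.

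HXT10, HXT9, HXT11 and HXT12 belong to the part of the family that is little transcribed in most conditions, and the reference annotation lists HXT12 as a pseudogene. HXT10 had centred log2 ratios of 1.66, 2.11 and 2.38 on arrays 2, 3 and 4, a mean of 2.05 ± 0.36 (SD, n = 3; limma, adjusted p = 0.00540). On array 4 its 2 probes lay 1.52 log2 apart, at 3.14 and 1.62, and both were above the median. HXT12 had 1.30, 1.34 and 0.96, a mean of 1.20 ± 0.21 (SD, n = 3; limma, adjusted p = 0.0148). HXT9, which closely resembles HXT11 and HXT12 in sequence, had 0.43, -0.20 and -0.56, a mean of -0.11 ± 0.50 (SD, n = 3), and did not pass (limma, adjusted p = 0.782). HXT12 stood above HXT9 on each array, by 1.31 ± 0.38 log2 (SD, n = 3). HXT11 had a ratio on array 4 only, at -0.37, near that of HXT9 there. Which transcripts of this group reached the spots named for HXT10 and for the pseudogene HXT12 was not tested.

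GAL2, the galactose permease, which is induced by galactose and also carries glucose, had 0.57, 0.97 and 0.75 on arrays 2, 3 and 4. The mean was 0.76 ± 0.20 (SD, n = 3) and missed the threshold narrowly (limma, adjusted p = 0.0507). HXT8 had a ratio on array 2 only, at 0.16. HXT2, a carrier transcribed at low glucose, and HXT13 and HXT14 had none.

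**Figure D2:**
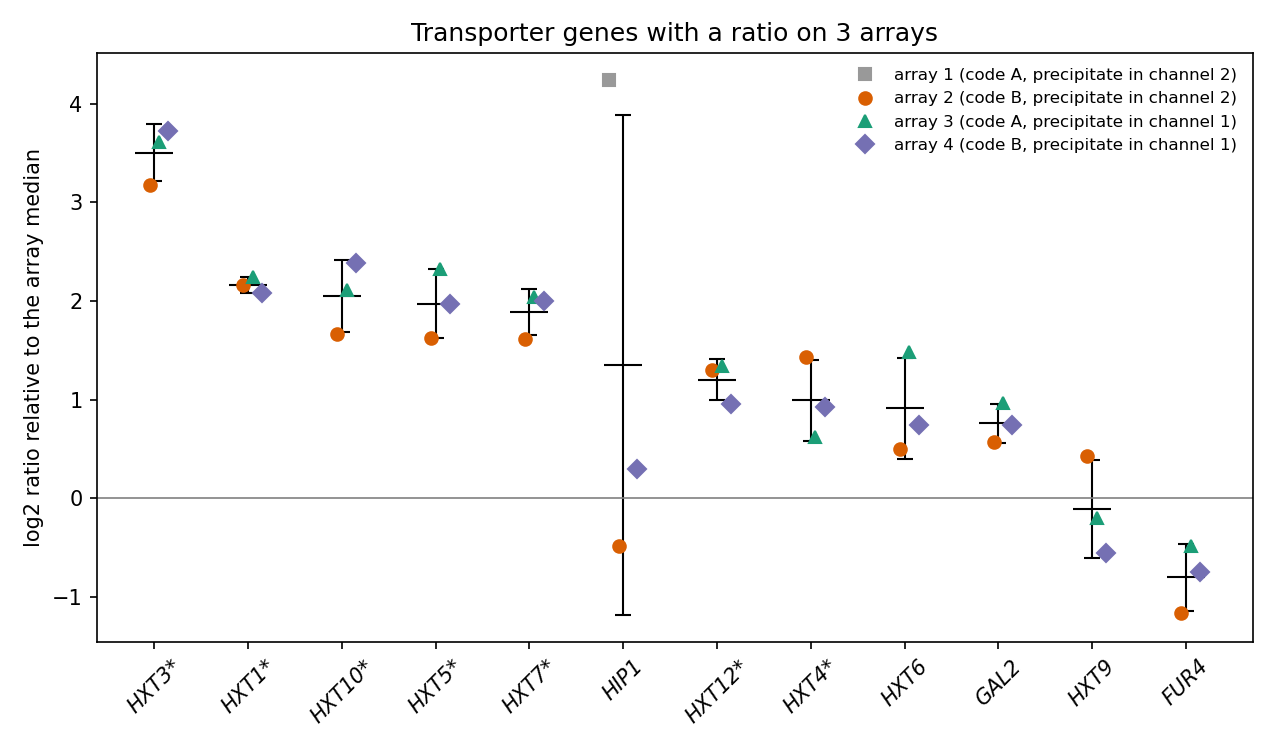
Centred log2 ratio of each transporter gene tested (vertical axis), 1 point per array, with the mean and SD over arrays; an asterisk marks genes called above the array median. HXT3 lies above 3 on each of arrays 2 to 4, and the wide bar of HIP1 comes from array 1.

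Ordered by mean, the hexose carriers ran from HXT3 over HXT1, HXT10, HXT5, HXT7, HXT12, HXT4, HXT6 and GAL2 to HXT9, over a range of 3.61 log2. The SD over arrays of a single gene was 0.08 to 0.51, with a median of 0.32, against a median of 0.49 over all features tested. Of the 9 pairs of neighbours in this order, 3 differed in the same sense on all 3 arrays and by more than the SD of the difference. These were HXT3 and HXT1, HXT7 and HXT12 (by 0.69 ± 0.36, SD, n = 3), and GAL2 and HXT9 (by 0.87 ± 0.63, SD, n = 3). With the centring by block, the last of these turned, with GAL2 minus HXT9 at -0.80 ± 0.59 (SD, n = 3). Centred on the array median, no gene differed from the next beyond its spread within the run from HXT1 to HXT7 or within that from HXT12 to GAL2. With the centring by block some of these did, with HXT1 minus HXT10 at 1.74 ± 0.54 and HXT5 minus HXT7 at -2.31 ± 0.70 (SD, n = 3). HXT12 minus HXT4 was then 0.87 ± 0.57 and HXT6 minus GAL2 1.88 ± 0.85 (SD, n = 3). With 3 arrays an exact two-sided permutation test of a difference cannot go below p = 0.25, so the differences are given as sizes only. The order was not that of affinity for glucose, since the high-affinity HXT7 stood between the low-affinity HXT3 and HXT1 and the moderate-affinity HXT4, with the high-affinity HXT6 next to HXT4.

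Outside the hexose family 2 genes were tested and neither passed. FUR4, the uracil permease, had centred log2 ratios of -1.16, -0.49 and -0.75 on arrays 2, 3 and 4, below the median on each. Its mean was -0.80 ± 0.34 (SD, n = 3; limma, adjusted p = 0.0572), and it was the 1 transporter gene below the median at an unadjusted p under 0.05. HIP1, the histidine permease, had 4.24 on array 1, -0.48 on array 2 and 0.30 on array 4. Its mean of 1.35 ± 2.53 (SD, n = 3; limma, adjusted p = 0.310) rested on array 1, and without it the mean was -0.09.

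On array 2, which held the most ratios, the classes can be set side by side within 1 hybridisation. The 11 hexose carriers with a ratio there ranged from 0.16 to 3.18 with a median of 1.43, and all 11 lay above the median of the tested features. The 9 genes of other classes ranged from -1.16 to 1.02 with a median of 0.50, and 5 lay above. Over all 1736 features with a ratio on array 2 the median was -0.30, and 676 lay above the median of the tested features. The median percentile among them was 91.8 for the hexose carriers and 75.4 for the other classes. Among the amino acid permeases, CAN1 (arginine) stood at 0.77 and DIP5 (glutamate and aspartate) at 0.50, HIP1 at -0.48 and GNP1 (glutamine) at -0.72. The 2 probes of CAN1 disagreed, at -0.14 and 1.67, as did those of GNP1, at -0.16 and -1.28. FET3, the oxidase of high-affinity iron uptake, had 1.02 and the copper carrier CTR1 0.74. The sulfate permease SUL2 had 0.59 and PMA2, the minor form of the proton pump, -0.60. Centred within blocks, as described below, the hexose carriers ran from -0.34 (GAL2) to 3.36 (HXT3) on array 2. The other classes ran from -1.09 (FUR4) to 1.83 (FET3), with FET3 above HXT4 at 1.81. The median was then 0.93 (HXT9) for the hexose carriers and 0.44 (DIP5) for the other classes. The contrast between the classes was thus smaller, and its size depends on the centring. A single array gives no error for these values.

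**Figure D3:**
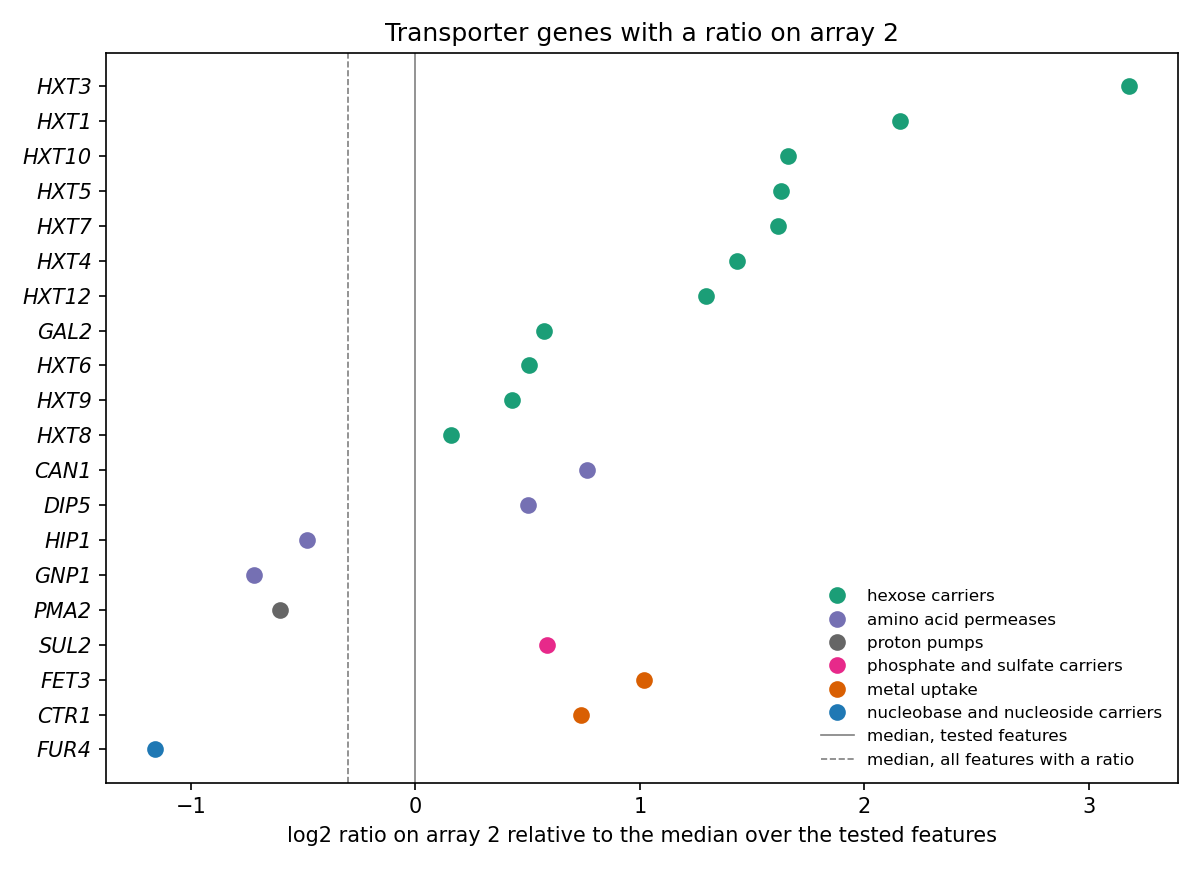
Centred log2 ratio on array 2 (horizontal axis) of the 20 transporter genes with a ratio there, 1 row per gene, coloured by class; vertical lines mark the median of the tested features (solid) and of all features with a ratio (dashed). With this centring the 5 highest values all belong to hexose carriers.

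A second array did not repeat the array 2 value for part of these genes. CTR1 had 0.74 on array 2 and -0.86 on array 4, and SUL2 had 0.59 and -1.74, whereas DIP5 had 0.50 on array 2 and 1.12 on array 3. PHO84, the high-affinity phosphate carrier, had a ratio on array 4 only, at 0.95. PMA1, the essential proton pump and among the most abundant plasma membrane proteins, had no ratio.

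Array 1 gave ratios for 5 transporter genes and their position there depends on the median used, since the median of all features with a ratio lay at -1.33 on the same scale. MEP2, an ammonium permease that also acts as a nitrogen sensor, had the highest value, 7.16, at the 99.8th percentile of that array, from 1 probe. HIP1 lay at the 98.0th percentile. PMA2, at -1.23, lay near the middle of that array, SUL1, a sulfate permease, at -2.50 at the 15.7th, and TAT2, the tryptophan permease, at -3.22 at the 5.17th. These array 1 values also depend on the centring. Taken against the median of its block (see the block comparison further down), MEP2 fell to 1.96, below HIP1 at 3.87. By that measure PMA2 turned to 0.43, SUL1 had -0.85 and TAT2 -1.35. The block median of HIP1 rested on 12 features on array 1. MEP2, SUL1 and TAT2 had no value on another array.

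No ratio was listed for the general amino acid permease GAP1, for AGP1, BAP2, BAP3, TAT1, LYP1, ALP1 or MUP1, for the ammonium permeases MEP1 and MEP3, or for PTR2 and DAL5, carriers of peptides and allantoate. The same held for the phosphate carrier PHO89, the metal uptake genes ZRT1, ZRT2, FET4 and FTR1, the nucleoside and nucleobase carriers FUI1 and FCY2, the inositol carriers ITR1 and ITR2, the lactate carrier JEN1 and the potassium carrier TRK1. It held for the sensors SNF3 and RGT2 as well.

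The probes of a hexose carrier mostly gave similar ratios on an array, and those of other transporter genes agreed less well. Over 40 pairs of probes measured on the same array the median difference was 0.21 log2, against 0.45 over 1615 such pairs of all named genes. It exceeded 1 in 4 of the 40 pairs, those of CAN1, GNP1, TAT2 and HXT10, and in 334 of the 1615 (20.7%). Most of the 40 pairs came from the tested hexose carriers, so the median mainly describes these. Outside them the difference ran from 0.048 (PMA2, array 1) to 1.81 (CAN1, array 2). There FUR4, SUL1 and SUL2 had 0.17, 0.22 and 0.14, whereas CTR1, FET3 and PMA2 had 0.87, 0.58 and 0.64 on array 2. The probes of HXT3 lay 0.025, 0.13 and 0.012 log2 apart on arrays 2, 3 and 4.

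**Figure D4:**
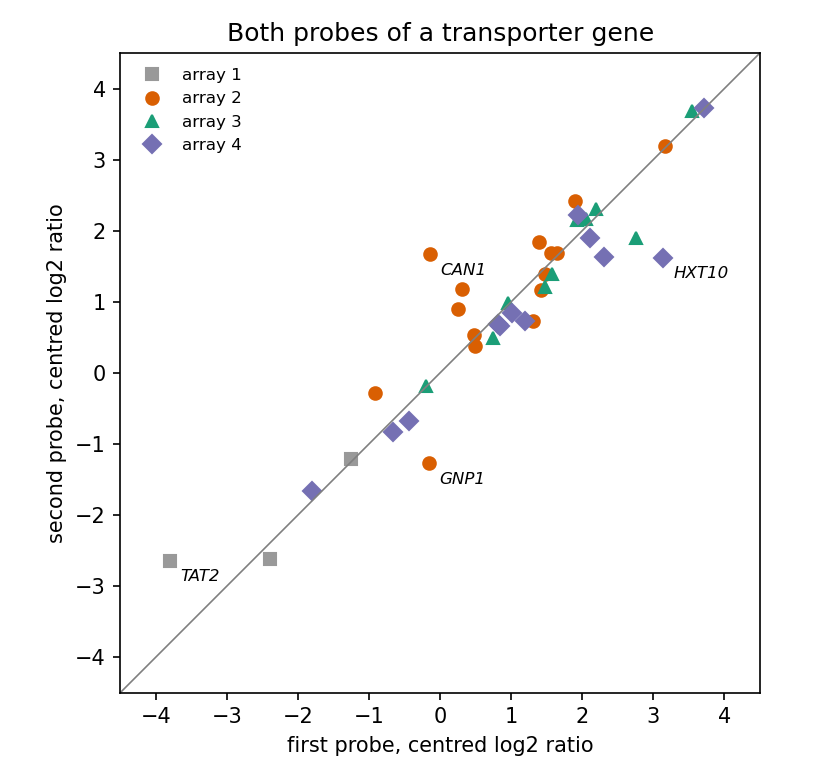
Centred log2 ratio of the first (horizontal axis) against the second probe (vertical axis) of the same transporter gene on the same array, 40 pairs; the line marks equal values. The pairs over 1 log2 apart are named.

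Centring within blocks of consecutive probe numbers moved several of these values. Whether the probe numbers follow the position of the spots on the array was not tested. The share of probes with a ratio varied along the probe order, on array 2 from 11.5% to 56.25% between the blocks of 400 consecutive probes that hold the tested hexose genes. The comparison was therefore repeated with each feature centred on the median of the features of its block. A gene, its probes averaged, was placed in the block of its first probe, and whether its other probe lay there too was not tested. HXT3, HXT7, HXT1 and HXT12 stayed above, with means of 3.78, 2.95, 2.46 and 1.98 (limma, adjusted p = 0.00695, 0.00695, 0.00756 and 0.00702), and HXT6 passed at 1.31 (limma, adjusted p = 0.0465). HXT10 and HXT5, which lie in the same block as GAL2, had 0.72 and 0.64 and lost their calls (limma, adjusted p = 0.0749 and 0.159), and GAL2 turned to -0.57. HXT4 had 1.10 and lost its call (limma, adjusted p = 0.0606). FUR4 moved to -0.40. HXT7 stood above HXT1 in these values, so the order below HXT3 depends on the centring. Block medians rested on 17 to 149 features for the hexose genes on arrays 2 to 4, so they carry error of their own.

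**Figure D5:**
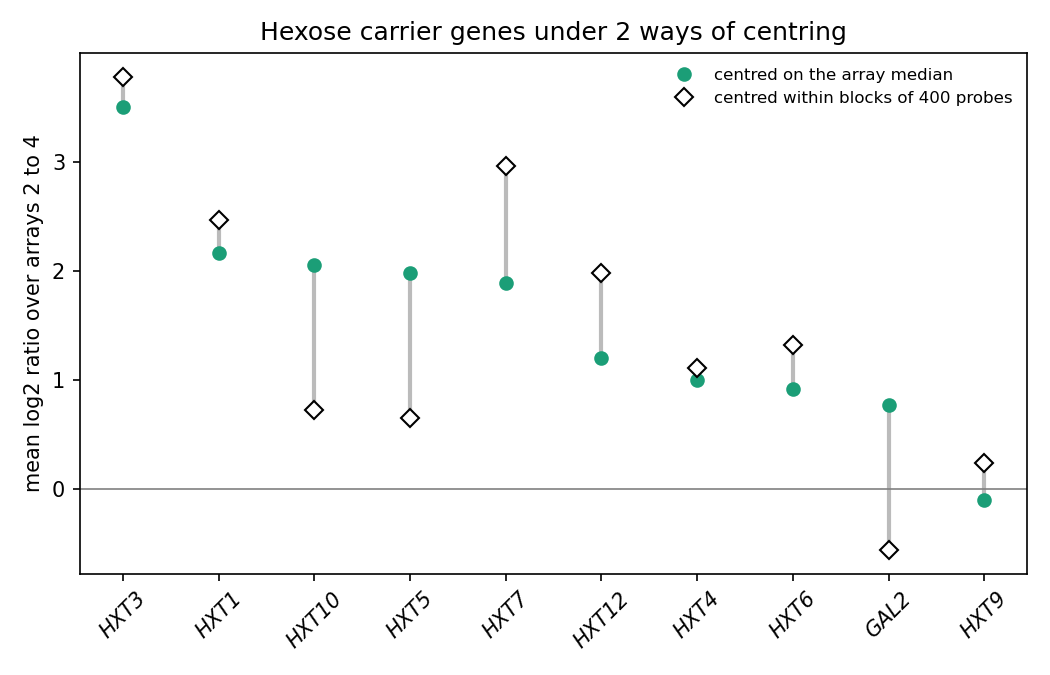
Mean log2 ratio over arrays 2 to 4 (vertical axis) of the 10 hexose carriers tested, centred on the array median (circles) or within blocks of 400 consecutive probes (diamonds). HXT3 stays highest, and HXT10, HXT5 and GAL2, which share a block, are lower within blocks.

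The calls also depended on which arrays entered. With 1 array left out and the same features, HXT1, HXT3, HXT5, HXT7 and HXT10 stayed called without any 1 of arrays 2, 3 and 4, while HXT4 and HXT12 lost their calls each time (limma, adjusted p from 0.0511 to 0.154). With every feature on at least 2 of the remaining arrays tested, only HXT1 and HXT3 stayed called without array 3 or array 4, and HXT5, HXT7 and HXT10 had adjusted p from 0.0533 to 0.0653 (limma). Without array 1, which holds none of their values, HXT6 and GAL2 were called above as well, both in that fit (limma, adjusted p = 0.0275 and 0.0347) and with the same features (limma, adjusted p = 0.0333 and 0.0281). Calls over all features also rose without array 1. They went from 275 of 596 to 371 of 837 in that fit and to 342 of 596 with the same features. FUR4 was called below without array 1 with the same features (limma, adjusted p = 0.0324) and not with every feature on at least 2 arrays (limma, adjusted p = 0.0969). Code A was represented by array 3 alone for the hexose genes. With the arrays of a code averaged first, 6 of the 7 calls held, all but HXT4 (limma, adjusted p = 0.105).

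Other genes of these pathways had few ratios. Of 57 further plasma membrane transporters, 13 had a ratio and 3 were tested; 0 passed, and 0 had an unadjusted p under 0.05 (limma). The nicotinic acid permease TNA1 stood at -0.41 ± 0.39 and the drug exporter QDR1 at -0.39 ± 0.48 (SD, n = 3). With probes kept apart, 1 probe of TNA1 was called below the median at -1.19 (limma, adjusted p = 0.0181). HXT15, HXT16 and HXT17 had no ratio. Of 31 regulators of transporter genes, 2 were tested, with a median of -2.02 for their mean log2 ratios. Over all features tested 24.8% were called below the array median, and of these 2 regulators 1 was. This was RGT1, the repressor of HXT genes, with -4.04, -3.40 and -3.41 on arrays 2, 3 and 4. Its mean of -3.62 ± 0.37 (SD, n = 3; limma, adjusted p = 0.00311) lay 12.3-fold below the median, at place 592 of 596. Any relation between this ratio and those of the HXT genes was not tested. RGT1 kept its call centred within blocks, at -3.26 (limma, adjusted p = 0.00695). Of 17 partners of transporters in the membrane and secretory route with a probe, 4 had a ratio and 0 were tested.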

How the data were processed

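RNA precipitated with zzMex67 was compared with total RNA on 4 two-colour arrays. The authors deposited log10 ratios of the channels for each probe. Of these values tested for it, 16.1% equalled log10 of a ratio of whole numbers up to 200 (relative tolerance 2.5e-09), against 0.118% for log2 and 0 for the natural log, which settled the base. How background, normalization and missing values were handled is not given in the sources used here. Array medians were -0.960, 0.462, -1.12 and -0.519 on the log10 scale as deposited, over the probes with a ratio; whether the arrays had been centred over more spots is not known. The direction is not stated. The number of arrays limits the precision, and 845, 2467, 973 and 1112 of 12800 probes had a ratio on arrays 1 to 4.

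Probe names came from the platform annotation of GEO, updated by Entrez identifier (11138 probes had 1 symbol, 0 several and 1662 none; 11128 matched the R64 gene table, used here for names and gene order). Repeated rows of a probe (2) and probes of a gene were averaged. Ratios were converted to log2. Features on at least 3 arrays with both channel assignments were kept (596; 498 named genes) and centred per array on their median, removing -1.88, 1.79, -3.73 and -1.61. A two-sided test of the mean against 0 was made in limma 3.58.1 (lmFit, eBayes; R 4.3.3), adjusted over all features. Percentiles are over all features with a ratio on the array. Python 3.11.15 with pandas 2.3.3, numpy 2.4.6 and matplotlib 3.10.9 did the rest; statmod 1.5.0 served the random block.

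Every transporter gene is named; from the other lists, the called genes (up to 4) or otherwise the 2 largest. The members and lists were chosen with earlier results of these data known. On simulated ratios of the precipitated against total RNA comparison, with the missing values of the 596 features and 200 changed, 47.7% of changes of 1 log2 and 95.7% of changes of 2 were recovered, with 4.11% false calls, and 24.5% and 85.8% with 4 times the spread on array 1. Alternatives were other limits on missing values, other centring, quantile normalization, scaling, a channel term, the title code as a block or averaged, arrays left out, other variance models, turned signs, probes kept apart and stricter thresholds. Leaving out an array with the same features, and centring on features other than these genes, were added after seeing the data. No sequences were used, and gene coordinates served only to give the gene order.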

Additional observations from a re-analysis of the deposited data

How the results depend on the processing

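The count of 7 transporter genes above the median stayed between 5 and 9 under the alternatives other than those named next. It was 0 without centring (0 at an unadjusted p under 0.05, limma) and 0 with arrays 3 and 4 turned in sign (0 unadjusted). It ran from 2 to 9 with 1 array left out, and from 5 to 9 with the same features. The count of 0 below (limma; 1 at an unadjusted p under 0.05) became 1, FUR4, with probes kept apart. It was 0 with any 1 array left out (limma; 0 unadjusted), and ran from 0 to 1 with the same features, the 1 being FUR4 without array 1. Over all features the 275 calls became 0 without centring (limma; 52 unadjusted), 0 with turned signs (limma; 1 unadjusted), 16 of 80 with features on all 4 arrays and 132 at an adjusted p under 0.01. They ran from 68 to 371 with 1 array left out, or 155 to 342 with the same features (178 without array 3). No transporter gene had a ratio on all 4 arrays, so that limit gave no value for them.

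Signs changed as follows, and beyond the construction of each alternative the cause was not tested. Without centring the mean log2 was -0.19 for HXT4, -0.27 for HXT6 and -0.42 for GAL2. Centred within blocks GAL2 had -0.57 and HXT9 0.23. HXT9 also turned to 0.019 centred on all probes, 0.013 with features on at least 2 arrays and 0.028 with a channel term, and ran from -0.35 to 0.23 with 1 array left out, or -0.38 to 0.12 with the same features. HIP1 ran from -0.092 to 2.27 with 1 array left out and the same features. With arrays 3 and 4 turned in sign the means were -1.38 for HXT3, -0.72 for HXT1, -0.94 for HXT10, -0.89 for HXT5, -0.81 for HXT7, -0.34 for HXT12, -0.036 for HXT4, -0.58 for HXT6, -0.38 for GAL2, 0.39 for HXT9 and 0.026 for FUR4. They were 0.92 for RGT1, 0.25 for TNA1, 0.20 for QDR1, -0.81 for VPH1 and 0.049 for PIC2.

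Each ratio already sets the precipitate against total RNA on the same array. No further pairing between groups was possible because the arrays form 1 group. Signal over background was not used here.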

Other observations

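Transporters of internal membranes were few among the tested features and had ratios above and below the median. Of 53 such genes of the vacuole, mitochondrion and other organelles with a probe, 16 had a ratio and 4 were tested. Of these 4, 1 was called above, 1 was called below and 2 did not pass. Over all 596 features tested 21.3% were called above and 24.8% below, so these counts do not set the list apart. VPH1, the vacuolar form of a subunit of the proton-pumping V-ATPase, had centred log2 ratios of 0.75, 1.83 and 1.34 on arrays 2, 3 and 4, a mean of 1.30 ± 0.54 (SD, n = 3; limma, adjusted p = 0.0243). PIC2, a carrier of the mitochondrial inner membrane, had -1.38, -0.68 and -0.85, a mean of -0.97 ± 0.36 (SD, n = 3; limma, adjusted p = 0.0372). Centred within blocks VPH1 stood at 1.64 and PIC2 at -0.19, where PIC2 did not pass (limma, adjusted p = 0.607). Without array 3 or array 4 neither was called in a fit to the same features (limma, adjusted p from 0.0825 to 0.148), nor was PIC2 without array 2 (limma, adjusted p = 0.106).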
